A study of Mus musculus with 7 samples.

Results

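The transcripts of 10 proliferation genes were followed through the hippocampus of wild-type (WT) and Arctic (Arc) mice: Mki67, Top2a, Cenpf, Cenpe, Knl1, Tpx2, Kif11, Kif20b, Neil3 and Aspm. They were matched by symbol, and all 10 were found among the 55536 annotated genes. Of 47708 barcodes that passed the filters and a doublet score, 141 held transcripts of at least 3 of the 10 genes, 74 of 43885 nuclei and 67 of 3823 single cells. The set overlaps a list that the study drew from a microglial cluster of these same samples, so its presence in microglia is not independent evidence of that cluster.

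Dividing cells build these proteins anew in each cycle. Ki-67, the product of Mki67, coats mitotic chromosomes and is absent from resting cells, topoisomerase IIα (Top2a) untangles sister DNA, and Neil3 is a DNA glycosylase found in cycling cells. CENP-F and CENP-E (Cenpf, Cenpe) and Knl1 belong to the kinetochore, Tpx2, Kif11 and Aspm organise the spindle and its poles, and Kif20b acts in cytokinesis. In the adult brain, oligodendrocyte progenitor cells (OPCs) keep dividing, microglia divide slowly at rest and more around amyloid, and neurons do not divide.

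Arc mice were Arctic48 hemizygotes, which carry a human APP transgene with the Swedish, Indiana and Arctic mutations on a C57BL6/J background, and WT mice were their controls without it. Each genotype received either PMX205, a cyclic peptide antagonist of the complement receptor C5aR1, at 20 µg/ml in drinking water, for 12 weeks by the sample labels, or water alone (vehicle, veh), and was examined at 10 months of age. The 4 groups (WT-veh, WT-PMX, Arc-veh, Arc-PMX) were each loaded in 6 wells of CD11b-selected single cells (SC), every well a pool of 2 to 3 mice, and in 6 wells of nuclei (SN), every well 1 mouse, with 3 wells of each sex. Wells were then mixed into 7 sublibraries, so the well is the replicate here. SN wells held 4389302 to 30001277 transcripts in kept nuclei and SC wells 1135 to 1430787. The study's reporting notes say that 1 sample of the WT group was left out because its expression was Arc, without naming it, and all deposited wells were kept here. Among SC microglia, the cluster led by Spp1, Gpnmb and Itgax held 7.02% of the cells of WT-veh well F2, 2.38% in F1 and none in the other 10 WT wells, against 1.49% to 41.1% in the 12 Arc wells. The share of SC microglia with at least 3 of the genes is therefore given with and without that well.

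The promoters of 3 of the genes are shown because their transcripts behaved differently below: Mki67 is the classical marker, Top2a had the highest ratio of OPC to neuronal level and was called between genotypes, and Cenpe was also counted in oligodendrocyte nuclei, none of which held 3 of the genes. RefSeq promoter windows (GRCm38.p6, from 250 bases before to 50 bases after the start) were matched for 9 of the 10 genes, all except Tpx2. Capitals mark the letters of 3 motifs on either strand: the cell cycle homology region CHR (TTTGAA or TTCGAA), the CCAAT box, and an E2F core (TTCCCGC or TTGGCGC). Matches of different motifs may touch or overlap. The windows are chr7:135716330-135716629 on the minus strand for Mki67, chr11:99024140-99024439 on the minus strand for Top2a, and chr3:135212313-135212612 on the plus strand for Cenpe.
Mki67: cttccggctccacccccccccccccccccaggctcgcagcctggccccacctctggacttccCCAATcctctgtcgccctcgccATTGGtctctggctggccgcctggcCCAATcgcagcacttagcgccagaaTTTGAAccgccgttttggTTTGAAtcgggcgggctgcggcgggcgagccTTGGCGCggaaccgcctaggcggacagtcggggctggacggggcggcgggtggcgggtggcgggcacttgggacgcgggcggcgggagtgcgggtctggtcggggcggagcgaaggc
Top2a: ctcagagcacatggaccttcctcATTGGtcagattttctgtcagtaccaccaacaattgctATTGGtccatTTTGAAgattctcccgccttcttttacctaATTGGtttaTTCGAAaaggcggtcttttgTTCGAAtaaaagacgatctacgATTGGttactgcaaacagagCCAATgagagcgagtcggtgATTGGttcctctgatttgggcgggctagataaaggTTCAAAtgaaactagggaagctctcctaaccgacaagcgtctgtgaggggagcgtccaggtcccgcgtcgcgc
Cenpe: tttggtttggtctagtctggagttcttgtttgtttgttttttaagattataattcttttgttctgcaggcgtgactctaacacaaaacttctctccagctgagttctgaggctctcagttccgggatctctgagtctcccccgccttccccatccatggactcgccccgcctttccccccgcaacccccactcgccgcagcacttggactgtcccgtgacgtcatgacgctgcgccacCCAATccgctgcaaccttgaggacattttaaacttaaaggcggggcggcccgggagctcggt
The Top2a window held 4 CHR and 6 CCAAT matches, the Mki67 window 2 CHR, 3 CCAAT and 1 E2F match, and the Cenpe window a single CCAAT match 12 bases before the start. Over the 9 windows, a CHR was present in 8, a CCAAT box in 6, both in 5 and an E2F core in 1. Among all 32851 promoter windows of that length, 19.2% held a CHR, 37.4% a CCAAT box, 7.52% both and 6.81% an E2F core. Kif20b, which was also counted in oligodendrocyte nuclei, had 2 CHR matches and no CCAAT box in its window. A match is a run of letters and not a bound site, and no link between motifs and levels was tested.

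Among the 5 most numerous named types of nuclei, OPC and microglial nuclei carried the highest levels of all 10 genes. In 1330 OPC nuclei, identified by Lhfpl3 (99.8% of nuclei), Tnr (99.8%) and Pdgfra (74.5%), Mki67 stood at 29.1 CPM (counts per 1000000 transcripts), Top2a at 24.3 CPM and Cenpe at 22.6 CPM. In 1511 microglial nuclei, identified by Inpp5d (87.1%), Apbb1ip (81.3%) and Csf1r (60.6%), the same genes stood at 21.1, 19.1 and 18.6 CPM. By the ratio of OPC to microglial level, Neil3 and Aspm differed most between these types, at 11.3 and 9.61 CPM in OPCs and 5.52 and 4.52 CPM in microglia, though the microglial values rested on 11 and 9 counts. Outside the 5 types, an unnamed cluster of 343 nuclei had Kif11 at 27.7 CPM on 28 counts, and 0 of its nuclei held 3 of the genes. T cell nuclei had Top2a at 37.0 CPM on 2 counts. The members and other cycle genes were left out of the genes used for clustering, so they did not set these names. Clusters were still built from the same nuclei, and the levels by type are given as a description with no test.

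**Figure D1:**
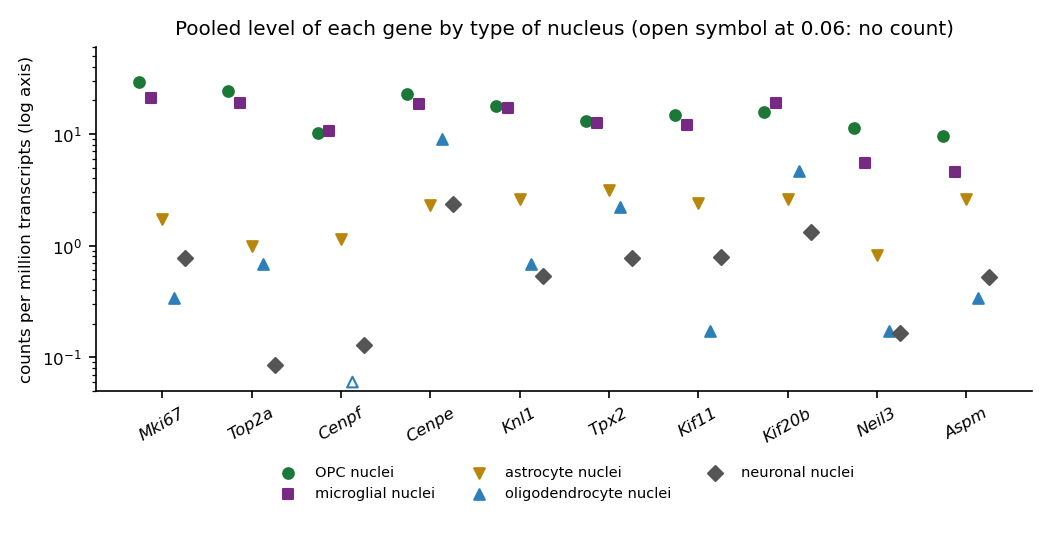
Pooled CPM (log axis) of each of the 10 genes in nuclei of 5 types, summed over all SN wells, with an open symbol at the foot for a gene with no count. OPC and microglial nuclei lie between 4.52 and 29.1 CPM for every gene, and Cenpe and Kif20b are the 2 genes with oligodendrocyte values above 4 CPM.

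Neurons, which supplied most of the transcripts, set the background. Among 25974 neuronal nuclei Mki67 was counted 216 times in 208 nuclei, or 0.774 CPM, and OPC nuclei were 37.6 times higher than this pooled level. The neuronal counts were uneven between clusters. A neuronal cluster of 5076 nuclei held 109 of the 216 (2.31 CPM), and another of 1280 nuclei held 0. Top2a had the lowest neuronal level, 24 counts or 0.0860 CPM, and was 283 times higher in OPC and 222 times higher in microglial nuclei. Cenpe lay at the other end with 663 neuronal counts, 2.38 CPM, and an OPC level only 9.52 times higher. Neurons thus held 70.7% of all Cenpe counts in nuclei, 62.5% of Kif20b and 47.8% of Mki67, but 10.7% of Top2a.

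Oligodendrocyte nuclei split the set. Cenpe was counted 53 times (9.06 CPM), Kif20b 27 times (4.62 CPM) and Tpx2 13 times (2.22 CPM) in 4161 nuclei, whereas Mki67 was counted 2 times, Kif11 and Neil3 once each and Cenpf not at all. None of these 4161 nuclei held 3 of the genes, which allows a share of up to 0.0721%. Astrocyte nuclei lay between 0.824 CPM (Neil3) and 3.13 CPM (Tpx2) for every member. Compared per kilobase of gene, since nuclear counts come largely from introns, Mki67 (26.6 kb) led in OPC nuclei at 1.09 CPM per kb, followed by Top2a (31.2 kb) at 0.778, and Cenpe (61.1 kb) stood at 0.370. No member shares its locus with another protein-coding gene in the annotation used, and the overlapping entries are small RNAs, pseudogenes and 1 antisense entry that the annotation lists as still to be experimentally established.

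In microglia and OPCs the 10 genes were held by few nuclei, and most counts of Mki67 and Top2a lay in nuclei that held several of them. Of 1511 microglial nuclei 1465 had none of them, 31 had 1, 1 had 2, and 14 had 3 to 10. Those 14 nuclei held all 42 Mki67 counts and all 38 Top2a counts of the type, and 28 of 34 Knl1 counts. Top2a was present in 14 of the 14, Knl1 in 13, and Mki67 and Tpx2 in 11 each. In OPCs 1235 nuclei had none, 55 had 1, 14 had 2 and 26 had at least 3, with 4 nuclei holding all 10. The 26 held 96 of 103 Mki67 counts and 82 of 86 Top2a counts, but 36 of 56 Kif20b and 53 of 80 Cenpe counts. The 14 OPC nuclei just outside the limit had 2 genes and the 4 just inside had 3. A single microglial nucleus lay on each side.

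**Figure D2:**
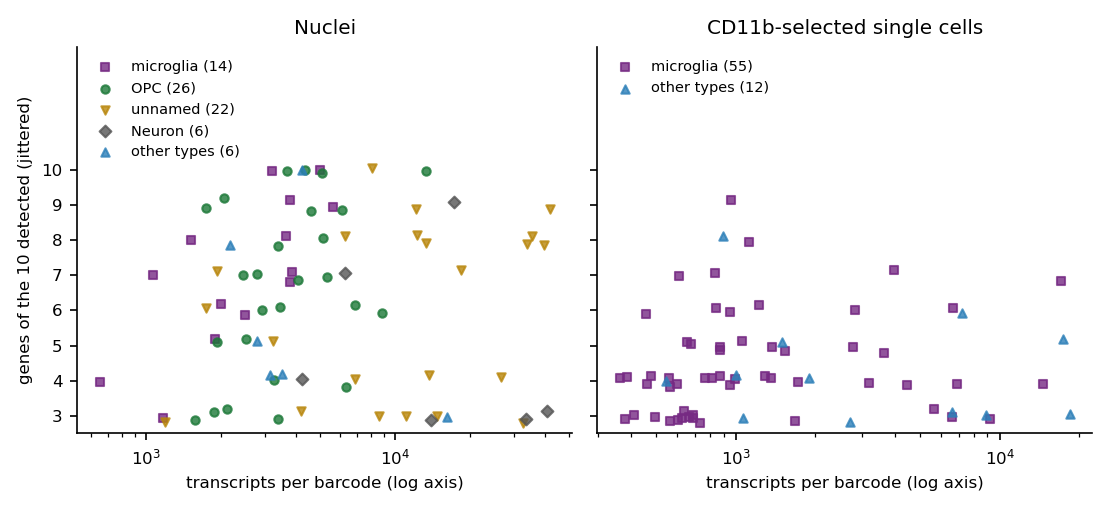
Number of the 10 genes detected (vertical, jittered) against transcripts per barcode (horizontal, log axis) for every barcode with at least 3, by type. Nuclei at left include 14 microglial and 26 OPC barcodes with up to 10 genes, and single cells at right include 55 microglia with up to 9.

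Depth set part of these shares, so each barcode was also thinned to 500 transcripts. Before thinning, a member was seen in 7.14% of OPC, 6.70% of neuronal and 3.04% of microglial nuclei, with median depths of 2306, 8445 and 1007 transcripts. After thinning these shares were 2.78%, 0.358% and 1.48%. At least 3 members remained in 12 of 1330 OPC nuclei, 8 of 1488 microglial nuclei and 0 of 25949 neuronal nuclei. Unthinned, 6 neuronal nuclei had at least 3, or 0.0231% (exact 95% interval 0.00848% to 0.0503%), against 1.95% of OPC (1.28% to 2.85%) and 0.927% of microglial nuclei (0.507% to 1.55%). Intervals are Clopper-Pearson and, like limits from a count of 0, cover counting error only.

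The other nuclei with at least 3 members lay outside microglia and OPCs. Astrocytes had 4 of 5443 (2 of 5441 after thinning), and in these the astrocyte markers stood at 10550 CPM against 29485 CPM in astrocytes with no member, and OPC markers at 3936 against 1582 CPM. The 6 neuronal nuclei had neuronal markers at 36258 CPM against 41031 CPM and OPC markers at 3743 CPM against 1814 CPM. An unnamed cluster of 698 nuclei held 18 (15 of them from Arc wells), of which 1 kept 3 members after thinning (0.143%), and its nuclei with no member carried microglial (5241 CPM), oligodendrocyte (8877 CPM) and neuronal (13722 CPM) markers at once. A small unnamed cluster with Bcas1, Enpp6 and Gpr17 among its leading genes, which mark newly forming oligodendrocytes, held 2 of 79, and 2 each lay among 437 endothelial nuclei and in another unnamed cluster of 2159. The part of mixed barcodes in these counts was not tested, and nuclei with a high doublet score, 3 of which had at least 3 members, were left out.

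The microglial and OPC nuclei with at least 3 members, called cycling nuclei here, also carried other cell cycle genes. Of 68 mitosis genes, 64 were detected in the 14 microglial and 67 in the 26 OPC nuclei, at summed levels of 16476 and 11606 CPM, against 346 and 484 CPM in nuclei of the same type with no member. Of 41 S phase genes 36 and 38 were detected, at 4031 and 3667 CPM against 270 and 337 CPM. The 24 cell cycle regulators differed less, at 2469 against 1880 CPM in microglia and 1274 against 515 CPM in OPCs. Type markers were kept: microglial markers stood at 15695 CPM in cycling and 18033 CPM in other microglial nuclei, and OPC markers at 27402 and 33342 CPM. Cycling nuclei were also deeper, with medians of 2850.5 against 991 transcripts in microglia and 3417.5 against 2246 in OPCs. These nuclei were chosen by cycle genes, and the values are a description.

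**Figure D3:**
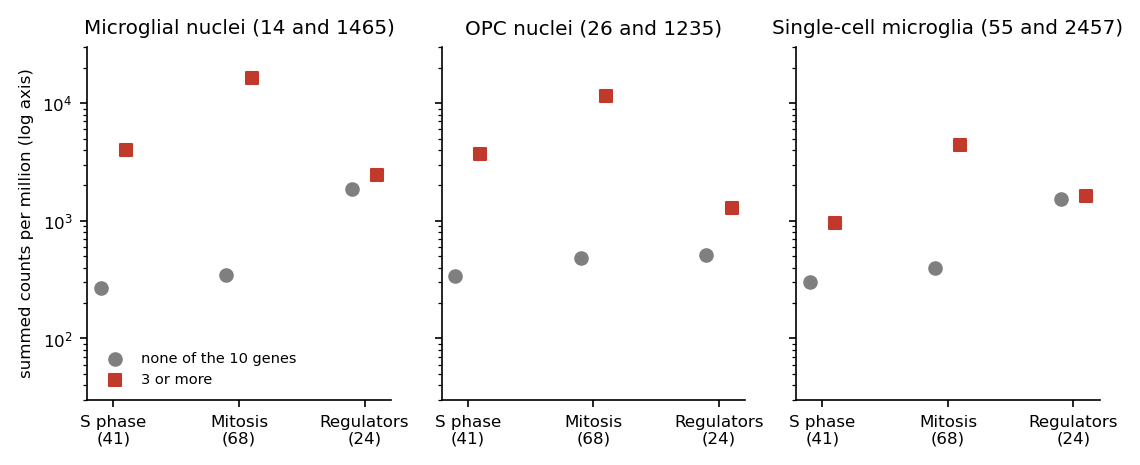
Summed level in CPM (log axis) of 3 cell cycle lists, with their numbers of genes, in barcodes with none of the 10 genes (circles) and with 3 or more (squares); the numbers of barcodes stand above each panel. The mitosis list lies at 346 to 484 CPM in circles and at 4435 to 16476 CPM in squares.

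Outside the set, the genes most concentrated in cycling nuclei were much the same kind in both types. In microglial nuclei they included Kif23, Lockd, Efcab11, Prc1, Ccnf, Cdca2, Kif4, Nusap1 and Anln, and in OPC nuclei Kif4, Lockd, Cdca2, Brip1, Ckap2l, Iqgap3, Kif23, Spag5 and Kif15. Kif23 and Prc1 act at the central spindle of cytokinesis, Kif4 and Kif15 are mitotic kinesins, and Lockd is a long noncoding RNA next to Cdkn1b. Kif23 had 25 counts in 11 of the 14 cycling microglial nuclei and 2 counts in the 1465 others, which is at least 398 times higher in CPM against a floor of 3 counts over those nuclei. Kif15 had 51 counts in 19 of the 26 cycling OPC nuclei and 6 in the 1235 others, 250 times higher. Eligible genes numbered 947 and 2358, and genes among the 10 of highest ratio were named with no test.

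Among CD11b-selected cells, 55 of 2642 microglia (2.08%, exact 95% interval 1.57% to 2.70%) had at least 3 members, with medians of 874 transcripts in these and 615 in microglia with none. Mki67 was present in 47 of the 55, Cenpe in 41 and Cenpf in 30, while Top2a was present in 26 and Tpx2 in 14. In microglial nuclei Top2a and Tpx2 were present in 14 and 11 of 14. The preparations differed in the cells loaded, in the compartment and in depth, and these cannot be told apart. The 55 microglia were spread over all 5 microglial clusters, from 0.792% to 3.68% of a cluster, the highest in the cluster led by Spp1 and Gpnmb, which was also the deepest of the 5 (median 974 transcripts). After thinning to 500 transcripts its share was 0.815% (3 of 368), below the 2.02% of the cluster with the highest thinned share.

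T cells gave few such barcodes. In nuclei, 49 formed a cluster with Skap1 in 87.8%, Grap2 in 85.7% and Themis in 79.6%, and 0 of the 49 had 3 members, which allows up to 6.12%. In single cells, a cluster of 51 with Skap1, Themis and Grap2 among its leading genes had 3 (5.88%, 1.23% to 16.2%). Cd3d and Trac were at 0 there, and its microglial markers stood at 14939 CPM in barcodes with no member, against 2216 CPM for T cell markers and 16267 CPM for microglial markers in SC microglia. It is not called a T cell population here. The SC endothelial and pericyte clusters held 6 of 531 and 3 of 185, with microglial markers at 13922 and 13054 CPM in those barcodes and their own markers at 3022 and 1578 CPM. In barcodes of these clusters with no member, microglial markers stood at 10729 and 8255 CPM and their own markers at 8760 and 4621 CPM. The summed microglial markers thus exceeded the clusters' own with and without members. These sums cover 15 microglial, 10 endothelial and 8 pericyte genes, so they do not compare the levels per gene.

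The comparison between genotypes asked whether cycling transcripts were more abundant in the amyloid-bearing hippocampus. In nuclei, 59 of 20475 Arc barcodes (0.288%, 0.219% to 0.372%) and 15 of 23410 WT barcodes (0.0641%, 0.0359% to 0.106%) had at least 3 members. After thinning these were 18 of 20440 (0.0881%, 0.0522% to 0.139%) and 6 of 23371 (0.0257%, 0.00942% to 0.0559%). The intervals here take nuclei as units and leave out the spread between wells, so they do not compare genotypes. By well, before thinning, 2 to 8 such nuclei lay in each Arc well and 0 to 3 in each WT well. All 14 cycling microglial nuclei came from Arc wells, 7 of 695 in Arc-veh and 7 of 554 in Arc-PMX, and none from WT. Arc wells also yielded far more microglial nuclei, 1249 against 262, so a count of 0 in WT allows a share of up to 1.15%, which is no lower than the 1.12% in Arc. In OPCs 18 of 608 Arc nuclei (2.96%, 1.76% to 4.64%) and 8 of 722 WT nuclei (1.11%, 0.480% to 2.17%) had at least 3. Wells of either genotype held 0 to 3 of these OPC nuclei each. Arc OPC nuclei were deeper, with medians of 2767 and 2811 transcripts in Arc-veh and Arc-PMX and of 1765 and 2072 in WT-veh and WT-PMX, and after thinning 8 of 608 and 4 of 722 remained. Since members were counted together here, these shares are given with no test.

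**Figure D4:**
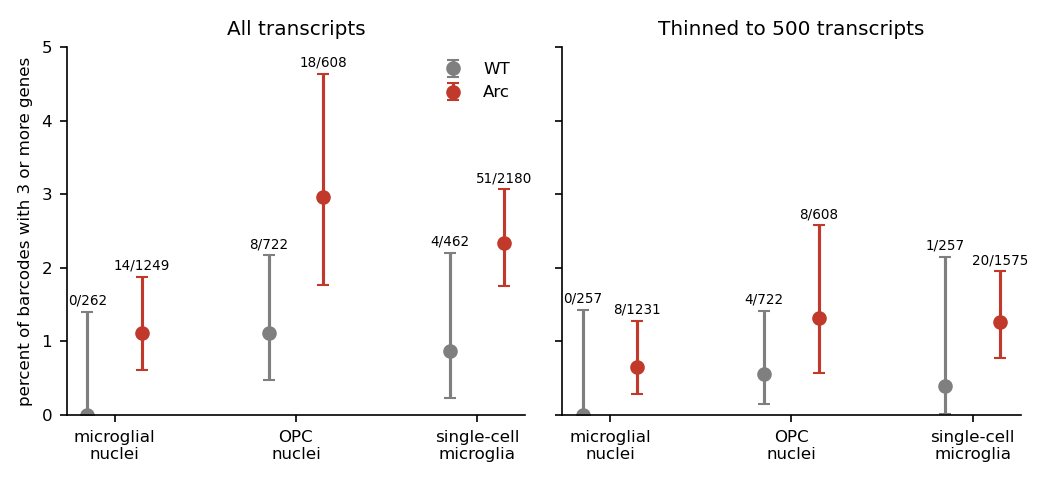
Percent of barcodes with at least 3 of the 10 genes in WT (grey) and Arc (red) for microglial nuclei, OPC nuclei and single-cell microglia, with exact 95% intervals and the counts, before (left) and after (right) thinning to 500 transcripts. Arc points are higher in each type. The intervals take pooled barcodes as units and leave out the spread between wells, so they do not compare genotypes.

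Mki67 alone was tested by well. Among microglial nuclei, the share with Mki67 was 0.906% ± 0.670 (SD, n = 6) in Arc-veh wells, above 0 in 5 of 6, and 0 in all 4 WT-veh wells with at least 10 microglia (two-sided exact permutation p = 0.0429, adjusted over 6 comparisons 0.130). Among OPC nuclei it was 3.58% ± 2.54 in 6 Arc-veh wells and 0.813% ± 1.33 in 6 WT-veh wells (exact permutation p = 0.0433, adjusted 0.130), above 0 in 5 and 2 wells. Neither difference passed the threshold of 0.05 after adjustment. PMX205 wells overlapped vehicle wells in these nuclear shares. The OPC share was 3.99% ± 3.24 in Arc-PMX against 3.58% ± 2.54 in Arc-veh (exact permutation p = 0.786, adjusted 1), and the microglial share 0.958% ± 1.20 against 0.906% ± 0.670 (exact permutation p = 0.965, adjusted 1). In WT, OPC shares were 1.62% ± 2.58 with PMX205 and 0.813% ± 1.33 without (exact permutation p = 0.727, adjusted 1). After thinning, the OPC difference Arc-PMX minus Arc-veh turned to −0.924 percentage points.

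Over whole SN wells, where 8 of the 10 genes had enough counts to fit, Top2a stood higher in most Arc wells. Its level per well in CPM ran from 0 to 1.02 with a median of 0.104 in WT-veh, from 0 to 0.674 (median 0.231) in WT-PMX, from 0.205 to 1.69 (median 1.29) in Arc-veh and from 0.200 to 2.28 (median 1.33) in Arc-PMX. The filter on low counts asked for 0.817 CPM in at least 6 wells, and Top2a met it only through Arc, in 9 Arc wells and 1 WT well. The highest WT-veh well, M2, lay within the Arc range, as did WT-PMX wells F1, F2, M1 and M3 (0.674, 0.507, 0.236 and 0.226 CPM). All other WT wells lay at or below 0.148 CPM. Between genotypes, the Arc mean over both treatments exceeded the WT mean by 1.99 ± 0.45 (SE) on the log2 scale (edgeR quasi-likelihood test, adjusted p = 0.00415). Of 16475 genes, 6.1% were called in that comparison, and of the 8 members tested 1 was. With every gene of at least 1 count fitted, which takes away the filter, 3 of the 10 members were called by edgeR, where 4.37% of genes were: Top2a (1.99, adjusted p = 1.05e-08), Cenpf (1.30, adjusted p = 0.00353) and Knl1 (0.88, adjusted p = 0.00867). That fit used the same wells and counts as the filtered one and differed only in the genes fitted. Its calls are therefore no independent support for a difference between genotypes. In whole wells, more cells of a cycling type and more RNA per cell cannot be told apart. Microglia made up 5.85% to 9.13% of nuclei in Arc-veh wells, 3.89% to 8.77% in Arc-PMX wells, and at most 2.42% in WT wells with at least 10 microglia. Top2a counts in OPC nuclei were 40 in Arc-veh, 27 in Arc-PMX, 9 in WT-veh and 10 in WT-PMX, and in microglial nuclei 17, 21, 0 and 0. Without microglial nuclei the Top2a difference was 1.66 with an adjusted p of 0.0641, and without the unnamed mixed cluster as well it was 1.37 with an adjusted p of 0.279, both by the edgeR test. Without OPC nuclei, Top2a fell below the filter. These removals were chosen after seeing the data, and the source of the difference was not tested.

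**Figure D5:**
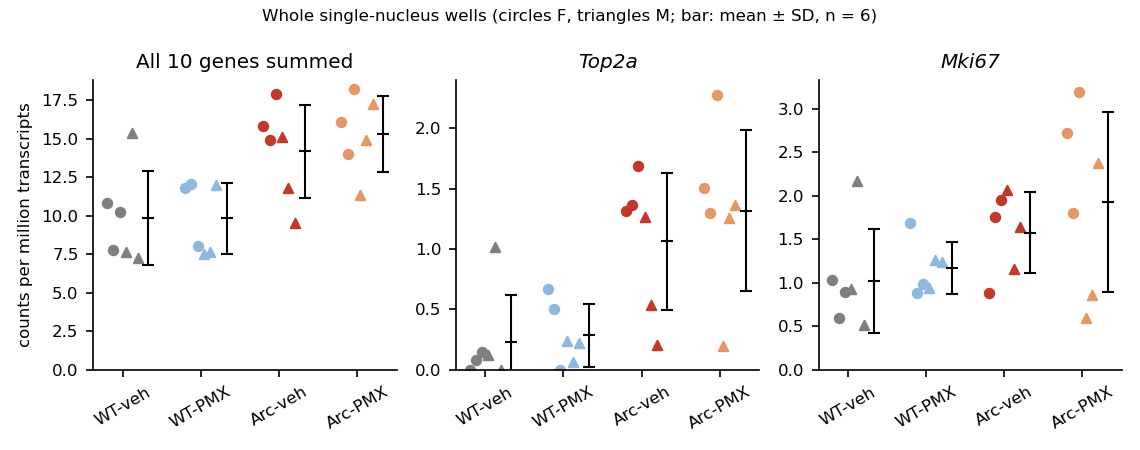
CPM in whole single-nucleus wells for all 10 genes summed, Top2a and Mki67, one point per well (circles F, triangles M) by group, with mean ± SD (n = 6), cut off at 0 where the SD reaches below it. Top2a medians are 0.104 and 0.231 in the WT groups and 1.29 and 1.33 in the Arc groups, and Mki67 ranges overlap.

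No other member passed with the filter in place. Knl1 differed by 0.88 ± 0.28 on the log2 scale (edgeR, adjusted p = 0.0603), Mki67 by 0.55 ± 0.25 (edgeR, adjusted p = 0.244) and Kif11 by 0.42 ± 0.21 (edgeR, adjusted p = 0.314). Tpx2, Kif20b, Cenpe and Aspm lay between 0.19 and 0.40. Knl1 and Aspm, too, met the filter only through Arc (10 and 7 Arc wells, 4 WT wells each), so nothing is read from the directions of the 8 together, and the Knl1 calls under single alternatives are given as values only. Without WT-veh well M2, Knl1 (1.05, edgeR adjusted p = 0.0188) and Mki67 (0.77, edgeR adjusted p = 0.0419) were called as well, and DESeq2 called Knl1 (adjusted p = 0.0210) beside Top2a on all wells. No share of all genes called is given for these alternatives, and nothing is read from their calls. Cenpf and Neil3 fell below the filter on low counts. Mki67 ran from 0.519 to 2.16 CPM in WT-veh, 0.887 to 1.68 in WT-PMX, 0.878 to 2.06 in Arc-veh and 0.601 to 3.19 in Arc-PMX, so its groups overlapped throughout. The 10 genes summed stood at 9.85 ± 3.06 CPM (SD, n = 6) in WT-veh, 9.84 ± 2.30 in WT-PMX, 14.2 ± 3.00 in Arc-veh and 15.3 ± 2.48 in Arc-PMX.

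Narrower comparisons gave no further call among the members. In vehicle wells alone, Top2a was 1.80 ± 0.64 higher in Arc on the log2 scale (edgeR, adjusted p = 0.137) and Mki67 0.52 ± 0.35 (edgeR, adjusted p = 0.528), where 3.99% of genes were called. Without WT-veh well M2, Top2a was called there too, but no share of all genes called is given for that fit and nothing is read from it. PMX205 against vehicle gave 0 of 8 members in Arc, 0 of 8 in WT and 0 of 8 for the difference between these effects, with 0% of all genes called by edgeR in each, and 258, 671 and 394 of the 16475 genes at an unadjusted p under 0.05. In Arc, Top2a differed by 0.27 ± 0.51 and Mki67 by 0.19 ± 0.33 with PMX205. In WT the same genes differed by −0.10 ± 0.76 and 0.12 ± 0.36.

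Of the wider cell cycle lists, 30 of 41 S phase genes, 32 of 68 mitosis genes and 16 of 24 regulators could be tested in whole SN wells. Between genotypes, where 6.1% of all genes were called, 1 of 30 tested S phase genes rose, Brip1 (1.02 ± 0.26, edgeR adjusted p = 0.0120), a helicase of DNA repair, and none fell. Of 32 mitosis genes, 2 rose and none fell: Iqgap3 (2.27 ± 0.40, edgeR adjusted p = 0.000265), a scaffold protein of proliferating cells, and Diaph3 (0.36 ± 0.09, edgeR adjusted p = 0.0164), a formin of the cytokinetic ring. Of 16 regulators, only Ccnd2, cyclin D2, passed, and it fell by 0.43 on the log2 scale (SE 0.09, edgeR adjusted p = 0.00109). List medians were 0.07, 0.10 and 0.01, beside −0.01 over all genes. Whether a gene met the filter only through Arc was checked for the 10 members and not for these lists. Nothing is therefore read from the list calls or medians. More cells of a type and more RNA per cell cannot be told apart here either. With PMX205 no gene of these lists passed in Arc or in WT.

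Within single types the members were too sparse to test. None passed the filter on low counts in microglial nuclei, OPC nuclei or SC microglia, where 18.7%, 2.45% and 18.5% of the 2374, 3097 and 1407 genes tested were called between genotypes. With every gene of at least 1 count fitted, edgeR called 4 of the 10 in microglial nuclei (Mki67, Top2a, Cenpe and Knl1), where 4.2% of all genes were called. Those 4 had 0 counts in both WT groups and entered that fit only through Arc, as did 5 others that were not called, and nothing is read from the count. The same fit called Mki67 and Cenpe in SC microglia (2.71% of all genes) and Top2a in OPC nuclei (0.556%), all higher in Arc. The median over all genes was itself 0.52 higher in Arc on the log2 scale in microglial nuclei and 0.51 in SC microglia in these fits. In microglial nuclei the summed 10 genes ran from 24.0 to 235 CPM in Arc-veh wells, from 41.7 to 466 in Arc-PMX wells and from 0 to 63.8 in WT-veh wells, and were at 0 in all 5 WT-PMX wells with at least 10 microglia. The 4 WT-veh wells with at least 10 microglia held 2 member counts in all. In OPC nuclei the groups overlapped, at 10.3 to 595 CPM in WT-veh, 13.3 to 222 in WT-PMX, 34.6 to 638 in Arc-veh and 50.3 to 485 in Arc-PMX. Each of these sums rests on 0 to 3 cycling nuclei per well. Of the 24 regulators 4 could be tested and 1 was called: Cdk6, the G1 kinase, rose in Arc microglial nuclei (0.72 ± 0.22 on the log2 scale, edgeR adjusted p = 0.0214). Of the 41 S phase genes 0 could be tested, and of the 68 mitosis genes 1, which was not called.

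In single-cell microglia the wells were uneven. At least 3 members were found in 28 of 1398 Arc-veh, 23 of 782 Arc-PMX, 3 of 227 WT-veh and 1 of 235 WT-PMX microglia. Arc-veh well F1 supplied 15 of the 28, and without it the Arc share moved from 2.34% to 2.21%. The WT share was 0.866% (0.236% to 2.20%), and 0.575% without WT-veh well F2, which held 2 of the 4. The summed genes ran from 180 to 322 CPM in the 5 Arc-veh wells with at least 10 microglia, from 107 to 512 in the 6 Arc-PMX wells, from 0 to 320 in 5 WT-veh wells and from 40.0 to 189 in 4 WT-PMX wells. In 5 of the 6 Arc-PMX wells the sum was 340 to 512 CPM, above all 5 of these Arc-veh wells, and well F1 at 107 CPM lay below them. Pooled over wells, the sum was 424 CPM in Arc-PMX and 197 CPM in Arc-veh, and Mki67 stood at 118 and 46.7 CPM. This difference in the sum was noticed in the values and was not itself tested. Gene by gene, 0 members were called between Arc-PMX and Arc-veh in SC microglia under 10 alternatives. These included the fit of every gene with at least 1 count. No share of all genes called is given for them. After thinning, 20 of 1575 Arc and 1 of 257 WT microglia remained, and 0 of 192 WT without F2. WT wells held 1 to 114 microglia each.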

How the data were processed

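Hippocampal single cells and nuclei were barcoded by split-pool ligation, and the deposited files hold raw transcript counts per gene and barcode for 7 sublibraries, made by the authors from reads demultiplexed with bcl2fastq and mapped to mm10 (submitters' processing notes). Gene identifiers are those of GENCODE M21. Wells were assigned to groups from the deposited well table. Barcodes with over 300 and under 50000 transcripts, and with over 300 genes and under 10% mitochondrial counts (single cells) or over 400 genes and under 1% (nuclei), were kept, 48969 in all. Barcodes with a Scrublet score above 0.25 were left out (8 cells, 1253 nuclei). Of 44442 distinct barcode combinations 4216 occurred in more than 1 sublibrary, and these were treated as separate cells. Each preparation was clustered with scanpy 1.11.5 (2000 variable genes without cycle genes, 30 components, 15 neighbours, Leiden resolution 1 or 1.5) and clusters were named from fixed markers. Counts summed per well (at least 10 cells of a type) were tested with edgeR 4.0.16 (TMM, filterByExpr, group and sex, Benjamini-Hochberg over all genes), with DESeq2 1.42.0 as an alternative, after a test on simulated data. All 10 genes were named, with up to 3 genes per list that passed and genes among the 10 most concentrated in cycling nuclei, of which some are not reported here. The genes and lists were chosen with earlier results of these data known. Replicates are wells of separate mice or pools.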

Additional observations from a re-analysis of the deposited data

Results flagged for a closer look

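A well lay far from the other 5 of its group in 4 of 29 groups of wells checked. By chance about 1 in 20 groups of independent, normally spread values would do so, which these sparse counts need not be. WT-veh well M2 did so in 3 of them: Top2a stood at 1.02 CPM in its nuclei (next highest 0.148), Mki67 at 2.16 CPM (next 1.03), and the 10 genes summed at 595 CPM in its OPC nuclei (next 217). These 3 flags share nuclei and are not separate observations. Well M2 held 3 nuclei with at least 3 of the genes. Of its 241 counts of the 10 genes, 2 OPC nuclei held 35 and 42 and 1 astrocyte nucleus held 64. WT-PMX well M1 had Mki67 in 6.67% of OPC nuclei (next 1.67%).

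Barcodes that failed the filters also held at least 3 of the genes, more in Arc-veh than in WT-veh wells by a single barcode: 6 against 5 in single cells and 4 against 3 in nuclei. Arc-PMX wells had 11 and 7, and WT-PMX wells 2 single cells. Of the 24 single cells, 18 had at most 300 transcripts, and of the 14 nuclei 7 had at least 50000. Whether these are cells was not tested.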

How the results depend on the processing

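Of 1269 results recomputed under an alternative, 1220 kept their direction and side of the threshold or moved little, and 10 turned in sign, all of them PMX205 differences in Mki67 share. Many of the 1220 could hardly change, so their number does not measure stability. In microglial nuclei, OPC nuclei and SC microglia no member passed the main filter, which largely fixed the 0 calls there. The Mki67 share of microglial nuclei was 0 in both WT groups. The share difference Arc-PMX minus Arc-veh became −0.924 percentage points in OPC nuclei after thinning and −0.169 in microglial nuclei with over 500 transcripts and genes. Leaving out 1 well at a time, it ran from −0.305 to 1.21 in OPC nuclei and from −0.250 to 0.284 in microglial nuclei, and WT-PMX minus WT-veh in OPC nuclei from −0.206 to 1.27, below 0 without WT-PMX M1. Arc-veh minus WT-veh ran from 0.674 to 1.09 in microglial nuclei (exact permutation adjusted p = 0.0476 without Arc-veh F3) and from 2.05 to 3.48 in OPC nuclei. With types named by their highest marker score, these were 1.12 and 2.39 (exact permutation adjusted p = 0.0130 and 0.0325). After thinning to 500 transcripts they were 0.264 and 1.46 (exact permutation adjusted p = 0.933 and 0.273).

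Shares with at least 3 members became 1.32% in Arc OPC nuclei after thinning. In Arc SC microglia they were 3.26% with at least 2 members, 1.27% after thinning and 3.81% with over 500 transcripts and genes, and in WT SC microglia 0 with at least 4 members and 0 with over 500 transcripts and genes. Between genotypes in whole SN wells, the number of members called ran from 1 to 3 when 1 well or sublibrary was left out. It was 2 with DESeq2, 3 with no filter and 2 with all deposited barcodes. With no filter, 4.37% of all genes were called in that comparison, against 6.1% with the filter. In vehicle wells alone the number of members called ran from 0 to 1, and was 1 with no filter. With no filter it was 4 in microglial nuclei, 2 in SC microglia and 1 in OPC nuclei. The shares of all genes called there were 4.2%, 2.71% and 0.556%. Nothing is read from the 4, since those genes had 0 counts in WT microglial nuclei. For DESeq2, all deposited barcodes, wells or sublibraries left out, and vehicle wells with no filter, no share of all genes called is given here. Nothing is read from those counts. In alternatives chosen after seeing the data, the number called between genotypes in whole SN wells was 0 without microglial nuclei. It was also 0 without OPC nuclei (where Top2a fell below the filter), without both, and without microglial nuclei and the unnamed mixed cluster. The causes of these changes were not tested. Top2a ran from 1.77 to 2.89 on the log2 scale when 1 well or sublibrary was left out. Of 36 pairs of wells sharing a replicate number, 6 correlated above 0.1 (median −0.022), so the numbers do not pair the wells, and with the replicate number as a block Top2a was at 2.03 (edgeR adjusted p = 0.00827) and 1 member was called. Top2a met the filter on low counts only through Arc, and all these fits reuse the same wells. Their Top2a values are therefore no independent support for a difference between genotypes. Fits on only the groups compared were not made for the mean and interaction contrasts. Few cycling barcodes per well limit every comparison within a type.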
